A study of Danio rerio with 8 samples.

Results

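MTTP, SLC26A1, apoa2, apoeb and PLA2G12B are genes of yolk lipid export or markers of the yolk syncytial layer, and their RNA was followed in whole zebrafish (Danio rerio) embryos. They were chosen by symbol, with case ignored, and each symbol matched 1 of the 33737 Ensembl identifiers, so that 5 of 5 were found. The choice was made with their values at 6 hours post fertilization (hpf) known, and the knockdown ratios at that age are therefore a description with no test. Poly(A) RNA was sequenced at 2 and 6 hpf from embryos that had received either a control morpholino, by the sample titles, or a morpholino against ddx3xb, which encodes a DEAD-box RNA helicase. The genotype labels call the control embryos wild type, and 1 library of the knockdown at 6 hpf is labelled ddx4xb although its title says ddx3xb. The 8 libraries form 4 groups of 2, and the authors deposited 1 RPKM value per gene and group (reads scaled by gene length and library depth). No difference given here therefore has a replicate check, an error or a p-value. A morpholino blocks the translation or splicing of its target and leaves the gene intact. Age and arm were the only variables in the labels, and no strain was named.

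The yolk syncytial layer is a multinucleate layer formed when marginal cells of the early embryo collapse into the yolk cell. It takes lipid from the yolk and hands it to the embryo as lipoproteins, particles of triglyceride, cholesterol and phospholipid wrapped in apolipoproteins. In lipoprotein assembly MTTP, the microsomal triglyceride transfer protein, loads lipid onto apolipoprotein B in the endoplasmic reticulum. PLA2G12B, a secreted phospholipase A2 relative without catalytic activity, promotes the filling of these particles in mice and zebrafish. Apolipoprotein E is a ligand of the low-density lipoprotein receptor family, apolipoprotein A-II is a component of high-density lipoprotein, and SLC26A1 exchanges sulfate and other anions.

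All 5 genes stood at 1.13 RPKM or less at 2 hpf and at a wide range of levels in control embryos at 6 hpf. They were 3.16-fold to 23.5-fold lower by RPKM in knockdown embryos at 6 hpf. In whole embryos fewer cells of a type and less RNA per cell cannot be told apart. A gene is called higher or lower below where the ratio of (RPKM + 1) was at least 2-fold, a scale that understates the change of genes with low values. Of the 16217 genes with at least 1 RPKM in some table, 7.87% were lower and 8.72% higher in the knockdown at 6 hpf, with a median log2 ratio of 0.20. All of the 5 genes were lower, a count that the choice of genes fixes. Their median of -1.98 on that scale was the ratio of apoa2, which reached 1 RPKM in the control table at 6 hpf alone.

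MTTP (ENSDARG00000008637) was listed at 0 in both tables at 2 hpf and reached 66.4 RPKM in the control table and 16.3 RPKM in the knockdown table at 6 hpf. The knockdown reached 24.5% of the control level, a log2 ratio of -1.96. PLA2G12B (ENSDARG00000015662) was also listed at 0 in both tables at 2 hpf. At 6 hpf control embryos had 38.5 RPKM and the knockdown 1.64 RPKM, which was 4.26% of control. Its log2 ratio of -3.90 was the 6th lowest of the 16217 genes compared. PLA2G12B therefore stood further below control than MTTP, and whether that gap exceeds the spread between libraries cannot be said.

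The apolipoprotein genes lay at opposite ends of the range. apoeb (ENSDARG00000040295) had 0.539 RPKM in the control and 1.13 RPKM in the knockdown table at 2 hpf, against 1678 and 405.0 RPKM at 6 hpf (log2 ratio -2.05). It was the 18th highest of all 33737 values in the control table at 6 hpf and the 122nd highest in the knockdown table. apoa2 (ENSDARG00000015866) was listed at 0 in both tables at 2 hpf and reached 3.75 RPKM in the control and 0.203 RPKM in the knockdown table at 6 hpf. Its log2 ratio of -1.98 ranged from -0.75 with a pseudocount of 5 RPKM to -3.67 with one of 0.1 RPKM. If reads were counted whole, a value above 0 holds at least 1 read and the lowest value sets a floor on reads. Whether they were counted whole is not given. By that reckoning the apoa2 values stood for at least 14 reads in control and at least 1 in knockdown embryos.

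SLC26A1 (ENSDARG00000029832) showed the smallest difference between the arms, as a ratio, of the 5. It was at 0.0041 and 0.0055 RPKM at 2 hpf and at 31.9 RPKM in the control and 10.1 RPKM in the knockdown table at 6 hpf (31.6% of control, log2 ratio -1.57). The same floor gives at least 4139 reads for its control value at 6 hpf and at least 1209 for its knockdown value, and at least 1655 and 368 for those of apoeb. On that assumption counting error was small for SLC26A1 and apoeb. For PLA2G12B only floors of 18 and 1 reads and for MTTP of 3 and 1 could be set. These floors are low because both genes were listed at 0 at 2 hpf and had no small value to set them by. They do not mean that few reads were counted.

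**Figure D1:**
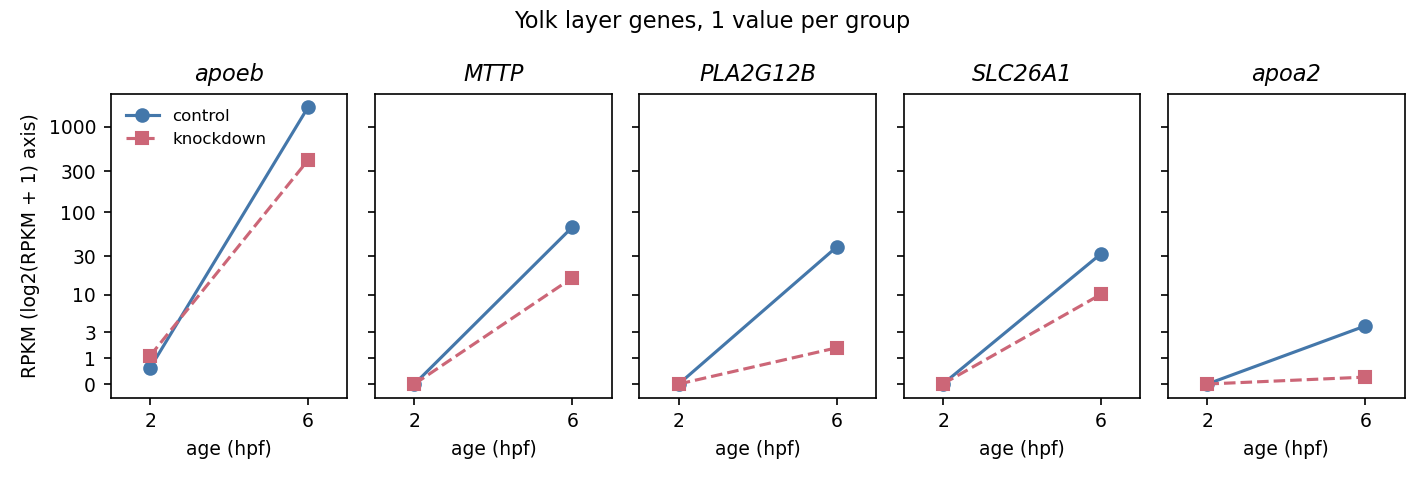
RPKM of the 5 genes at 2 and 6 hpf on an axis of log2(RPKM + 1), with circles for control and squares for knockdown embryos, 1 value per group without error. Each gene starts near 0 at 2 hpf, and at 6 hpf the knockdown value lies below the control value in every panel, from 1678 against 405.0 RPKM for apoeb to 3.75 against 0.203 RPKM for apoa2.

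The comparison at 2 hpf could hardly show a difference, and the genes were chosen with earlier results of these data known. None of the 5 was higher or lower there, a count near the small shares of all genes compared (0.506% and 0.943%). MTTP, apoa2 and PLA2G12B were listed at 0 in both arms and SLC26A1 at 0.0041 and 0.0055 RPKM. Such values cannot give a 2-fold ratio of (RPKM + 1). Only apoeb had more than a trace of RNA at that age, and its log2 ratio was 0.47. From 2 to 6 hpf all 5 genes were higher in control embryos, as were 27.5% of all genes, and 4 of the 5 were higher in knockdown embryos, as were 25.5% of all genes. The exception was apoa2, with 0.203 RPKM at 6 hpf in the knockdown. These counts changed with the pseudocount. With one of 0.1 RPKM apoa2 was higher in the knockdown too (log2 change 1.60), and with one of 5 RPKM 4 of the 5 were higher in control embryos, without apoa2 (0.81), and 3 of the 5 in the knockdown, without PLA2G12B (0.41) and apoa2. The ratios over time share their tables with the ratios between arms, so the 2 sets of values are not independent. They also use the 6 hpf values that were known when the genes were chosen. In both arms the order of levels at 6 hpf began with apoeb and MTTP and ended with apoa2, and PLA2G12B passed from above SLC26A1 in control embryos to below it in the knockdown. The 5 control values spanned 447-fold and the 5 knockdown values 1993-fold. Whether neighbours in this order differ beyond the spread of libraries cannot be said with 1 value per group.

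Other genes named as apolipoproteins were read from a list of 28 symbols. Of these, 16 matched 17 genes besides the 2 above, and 8 of the genes reached 1 RPKM. At 6 hpf 4 of the 8 were lower and none higher (median log2 ratio -1.40, or -0.10 over all 17, since most stayed near 0). The 4 within 2-fold were apool (log2 ratio -0.07), APOO (-0.14) and both genes marked APOD (0.71 and -0.07). These 4 were named after their values were seen. With a pseudocount of 5 RPKM the median of the 8 was -0.89. apoc2, the cofactor of lipoprotein lipase in mammals, had 91.5 RPKM in control against 7.04 RPKM in knockdown embryos, and apoc1, another small apolipoprotein, at 394.2 and 60.4 RPKM. apoa1a, a gene for the main protein of high-density lipoprotein, was at 16.2 and 0.725 RPKM, and apoa4b.2, an apolipoprotein A-IV gene, at 18.1 and 2.03 RPKM. In the control table at 6 hpf alone did apoa1a reach 1 RPKM. Reads of the tandem apoa4b copies could be split between them, which leaves apoa4b.2 uncertain. Genes for apolipoprotein B, the scaffold onto which MTTP loads lipid, were hardly seen at this age. APOB stood at 0.450 and 0.463 RPKM, apobb.1 at 0.763 and 0.0467 RPKM and apobb.2 at 0.0965 and 0.0379 RPKM (these 3 were named after their values were seen).

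The genes apoeb and apoa2 are neighbours. In the gene order of the RefSeq assembly GRCz12tu, which is not the build of the files, apoa4b.2, apoeb, apoc1, apoc4, apoa2 and apoc2 follow each other. This block was looked at after its values were known. All of them but apoc4 (0 and 0.0591 RPKM at 6 hpf) were lower in the knockdown, with log2 ratios from -1.98 for apoa2 to -3.52 for apoc2. The genes next to the block differed less, with bcam at 1.45 and 1.24 RPKM and RPS19 at 233.4 and 142.1 RPKM, and apoa4b.1 and apoa4b.3 on the other side did not exceed 0.11 RPKM. Around the other 3 genes the 5 protein-coding genes on each side included fewer lower ones than the block. The block was picked with its values known and holds the chosen genes apoeb and apoa2. Lower were 2 of the 7 compared around MTTP (spink4 and b4galt1) and 2 of 7 around PLA2G12B (PRR18 and mrps6). Around SLC26A1 1 of 5 was lower (DUSP4) and atp5mea was higher. At 6 hpf 7.87% of all genes compared were lower and 8.72% higher. Whether these few neighbours differ from that share was not tested.

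**Figure D2:**
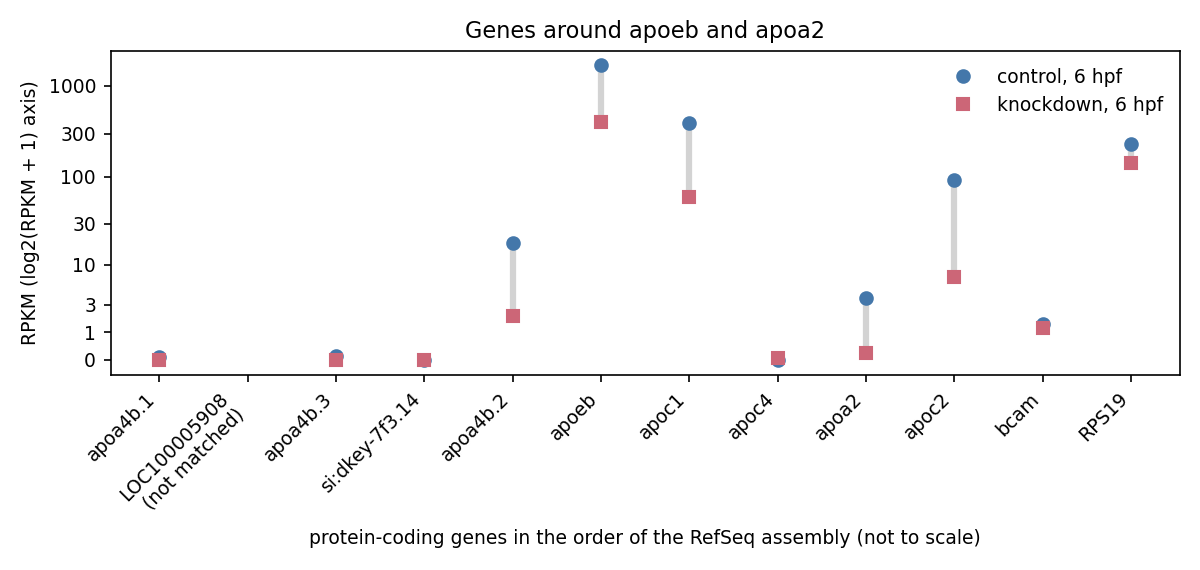
RPKM at 6 hpf of the protein-coding genes around apoeb and apoa2, in their order on the RefSeq assembly with equal spacing, on an axis of log2(RPKM + 1), with circles for control and squares for knockdown embryos. From apoa4b.2 to apoc2 the control value exceeds the knockdown value except at apoc4, and bcam and RPS19 show shorter gaps.

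Sulfate transport was read from a list of 17 symbols around the SLC26 family, of which 11 matched 12 genes and 6 reached 1 RPKM. Of these 6, 1 was lower and none higher (median -0.58). The lower gene was SLC13A4, a sodium-sulfate cotransporter, with 74.9 RPKM in control against 14.8 RPKM in knockdown embryos. SLC26A2, a sulfate transporter needed for cartilage in mammals, stood at 1.99 and 0.852 RPKM and SLC26A4, an iodide and anion exchanger, at 1.46 and 0.568 RPKM. SLC26A5 (13.5 and 18.9 RPKM) and SLC26A11 (1.999 and 3.196 RPKM), named after their values were seen, were already present at 2 hpf and leaned the other way within 2-fold. PAPSS1, also present at 2 hpf and likewise named after its values were seen, leaned down within 2-fold (16.5 and 11.3 RPKM at 6 hpf). Of the phospholipases A2 and their relatives none of 8 was higher or lower (median 0.34). PLA2G12A, the closest relative of PLA2G12B by name, was at 4.64 and 3.14 RPKM at 2 hpf and at 7.81 and 4.56 RPKM at 6 hpf, and the values of largest ratio were those of pnpla7a (9.002 and 18.5 RPKM), PLA2G6 (2.04 and 4.14 RPKM) and PNPLA6 (2.78 and 5.15 RPKM).

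Markers and regulators of the yolk syncytial layer besides the 5 genes did not move as a block. Of 49 symbols 31 were measured and 21 reached 1 RPKM, and of these 11 were lower and none higher (median -1.05, and -0.14 over all 31). With a pseudocount of 5 RPKM 7 of the 21 were lower (median -0.46). Of the 11, selenop (4.20 and 0.473 RPKM) and spns2 (3.17 and 0.927 RPKM) reached 1 RPKM in the control table at 6 hpf alone. snai1a, also among the 11, was already at 127.3 and 129.8 RPKM at 2 hpf. These 3 were named after their values were seen. In whole embryos the RNA of the listed genes cannot be assigned to the yolk layer. Of all genes compared 7.87% were lower and 8.72% higher. The lowest ratios were those of tfa, which encodes transferrin, with 26.9 RPKM in control against 2.21 RPKM in knockdown embryos, and BHMT, an enzyme of methionine metabolism, at 24.1 and 2.15 RPKM. CEBPA, a transcription factor of liver and fat in mammals, followed with 25.7 and 5.18 RPKM. HNF4A, a nuclear receptor that regulates apolipoprotein genes in mammalian liver, was at 62.8 and 21.1 RPKM, a log2 ratio of -1.53. In contrast mxtx2, a homeobox gene of the zebrafish yolk syncytial layer, had 29.5 RPKM in control against 48.6 RPKM in knockdown embryos (log2 ratio 0.70, or 0.35 with median-ratio rescaling), and its relative mxtx1 at 90.3 and 43.1 RPKM (log2 ratio -1.05, and -0.98 with a pseudocount of 5 RPKM). mixl1, which encodes a mesendoderm homeodomain protein, stood at 23.2 and 17.9 RPKM. Of the yolk cathepsins, proteases that break down yolk protein, ctsla was at 1526 and 1265 RPKM and CTSD at 124.5 and 173.8 RPKM (both named after their values were seen).

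**Figure D3:**
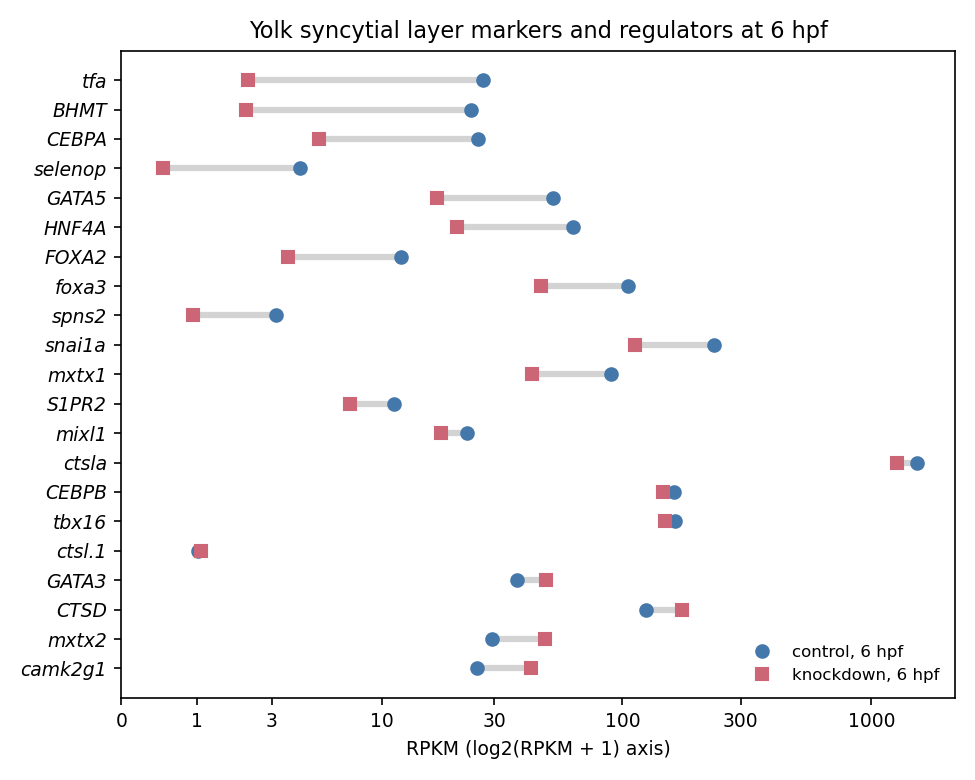
RPKM at 6 hpf of the 21 yolk syncytial layer markers and regulators with at least 1 RPKM in some table, sorted by their log2 ratio, on an axis of log2(RPKM + 1), with circles for control and squares for knockdown embryos. The gaps are widest for tfa (26.9 and 2.21 RPKM) and BHMT, and the order of the arms is turned for GATA3, CTSD, mxtx2, camk2g1 and ctsl.1 (1.02 and 1.08 RPKM).

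Markers of the yolk layer and of other cell types were read beside these values. Of 7 yolk syncytial layer markers fixed for this check besides MTTP and SLC26A1, 5 were measured. Of these, 4 reached 1 RPKM, and SLC40A1 did not exceed 0.165 RPKM. Of the 4, mxtx1 and HNF4A were lower, while mixl1 and mxtx2 lay within 2-fold, mxtx2 with a log2 ratio above 0. The 5 summed to 206.0 RPKM in control against 131.0 RPKM in knockdown embryos at 6 hpf, a sum that joins these unlike courses. The liver markers fabp10a, fga and FGB did not exceed 0.161 RPKM and the intestinal markers FABP2 and VIL1 did not exceed 0.608 RPKM in any table, although tfa, the remaining liver marker, reached 26.9 RPKM. Of the enveloping layer markers, which label the outer epithelium, 12 of 18 were lower (median -1.36). krt17 stood at 52.6 and 3.53 RPKM, agr1 at 22.6 and 1.02 RPKM and cyt1l at 49.8 and 6.36 RPKM, and keratin genes can share reads. These markers did not all fall, since 3 of the 18 had a ratio above 0, though within 2-fold. Among those were grhl3 (64.2 and 121.3 RPKM) and klf17 (82.5 and 96.2 RPKM), both named after their values were seen. The 10 enveloping layer markers measured for the check summed to 3332 RPKM in control against 1269 RPKM in knockdown embryos at 6 hpf. The egg markers GDF9, an oocyte factor, and zp3c, an egg envelope gene, were higher in the knockdown, at 2.54 and 12.8 RPKM and at 8.88 and 25.9 RPKM. Of 3 early embryo genes 1 was higher, nanog at 207.5 and 728.0 RPKM, while sox19b (32.0 and 63.5 RPKM) and pou5f3 (706.7 and 674.6 RPKM) lay within 2-fold. The blood and muscle markers measured, 2 each, did not exceed 0.334 RPKM. The part of these other cell types and of the egg RNA in the values of the 5 genes was not tested.

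The genes that handle lipid elsewhere in the cell were divided. In the list for triglyceride and phospholipid synthesis 6 of 25 genes were lower and none higher (median 0.14, or -0.21 with median-ratio rescaling). These counts depended on the settings. With a pseudocount of 0.1 RPKM 6 were lower and 5 higher, and with one of 5 RPKM 3 were lower and none higher. With a filter of 5 RPKM 3 of 18 were lower and none higher. ELOVL6, a fatty acid elongase, stood at 10.5 and 2.19 RPKM, CHKA, a choline kinase, at 8.58 and 1.74 RPKM and lpcat4, a lysophospholipid acyltransferase, at 55.2 and 18.2 RPKM. Among lipoprotein receptors, lipases and remodelling proteins 5 of 16 were lower and 2 higher (median -0.07). With a filter of 5 RPKM 3 of 11 were lower and 2 higher (median 0.21). abca1b, a transporter that loads cholesterol onto high-density lipoprotein, was at 33.6 and 8.52 RPKM, ANGPTL4, an inhibitor of lipoprotein lipase, at 3.01 and 0.290 RPKM and mgll, a monoglyceride lipase, at 57.9 and 21.0 RPKM. Of the 5 lower genes, ANGPTL4 and CD36 (1.11 and 0.0332 RPKM) reached 1 RPKM in the control table at 6 hpf alone. They were thus counted through their control value only, and CD36 was named after its values were seen.

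Most genes of the secretory route lay within 2-fold. Of the list for lipoprotein assembly and export, which holds the vesicle coat, cargo receptors and chaperones of the endoplasmic reticulum, 5 of 17 were higher and 1 lower (median 0.53). With median-ratio rescaling this became 1 higher and 2 lower (median 0.25). SURF4, a receptor that carries lipoproteins out of the endoplasmic reticulum in mice, had 4.95 RPKM in control against 16.2 RPKM in knockdown embryos. HSP90B1, an endoplasmic reticulum chaperone, was at 53.9 and 129.4 RPKM and LMAN1, a cargo receptor, at 34.8 and 83.6 RPKM, and both fell short of 2-fold (0.89 on the log2 scale) with median-ratio rescaling. Of the fatty acid binding and oxidation genes 5 of 15 were higher and 1 lower (median 0.89), with hadhaa, of the mitochondrial trifunctional protein, at 3.78 and 14.4 RPKM, FABP3, a fatty acid binding protein, at 20.9 and 62.2 RPKM and SLC27A4, a fatty acid transporter, at 5.97 and 0.991 RPKM. Of the sterol genes 2 of 10 were higher and none lower (median 0.71), or 1 higher with median-ratio rescaling and 0 with a pseudocount of 5 RPKM. SCAP, the escort of the sterol-sensing transcription factors, stood at 3.84 and 12.4 RPKM, FDPS, a prenyl synthase gene, at 18.7 and 39.0 RPKM (log2 ratio 1.02, or 0.67 with median-ratio rescaling) and insig1 at 10.004 and 18.03 RPKM.

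**Figure D4:**
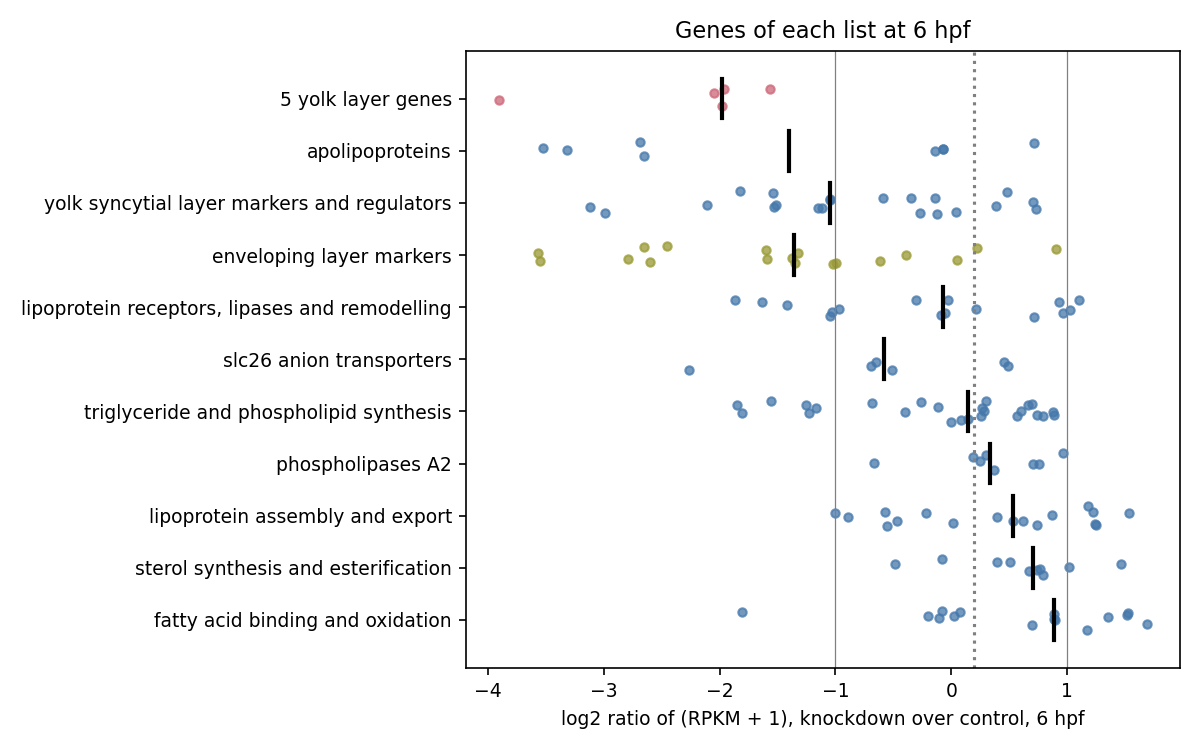
Log2 ratio of (RPKM + 1), knockdown over control at 6 hpf, with 1 point per gene, black bars at the list medians, grey lines at 2-fold and a dotted line at 0.20, the median of all genes compared. The 5 yolk layer genes lie left of the lower line. So do 4 of 8 other genes of the apolipoprotein list and 11 of 21 of the yolk layer list. The same holds for 12 of 18 enveloping layer markers, and no gene of these lists lies past the upper line. Some genes of other lists also lie left of the lower line. The export, sterol, fatty acid and phospholipase A2 lists have medians to the right of the dotted line.

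The genes of these lists were then divided by their level at 2 hpf, when most RNA comes from the egg. This split was made after the values were seen, and the lists were chosen with earlier results of these data known. The 9 lists without the 5 genes held 126 genes compared, of which 29 were lower and 14 higher at 6 hpf, or 32 and 6 with median-ratio rescaling. Of the 37 with a mean under 1 RPKM at 2 hpf, 25 were lower and none higher (median -1.26), while 23.9% of all 3842 genes of that kind were lower and 4.37% higher. Of the 1134 among the latter with a mean of at least 5 RPKM at 6 hpf, 36.9% were lower. Of these 37 genes 10 reached 1 RPKM in the control table at 6 hpf alone, 7 of them among the 25, and passed the filter through their control value only. Of the 89 with 1 RPKM or more at 2 hpf, 4 were lower and 14 higher (median 0.48), against 2.90% and 10.07% of 12375 such genes. With median-ratio rescaling the first count stayed at 25 of 37 and the second became 7 lower and 6 higher. At 2 hpf none of the 126 genes was higher or lower, and their median was -0.09. Of all genes compared 0.506% were higher and 0.943% lower at that age, with a median of -0.12, so the lists lay near the general share. The 37 genes under 1 RPKM could hardly reach 2-fold there.

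**Figure D5:**
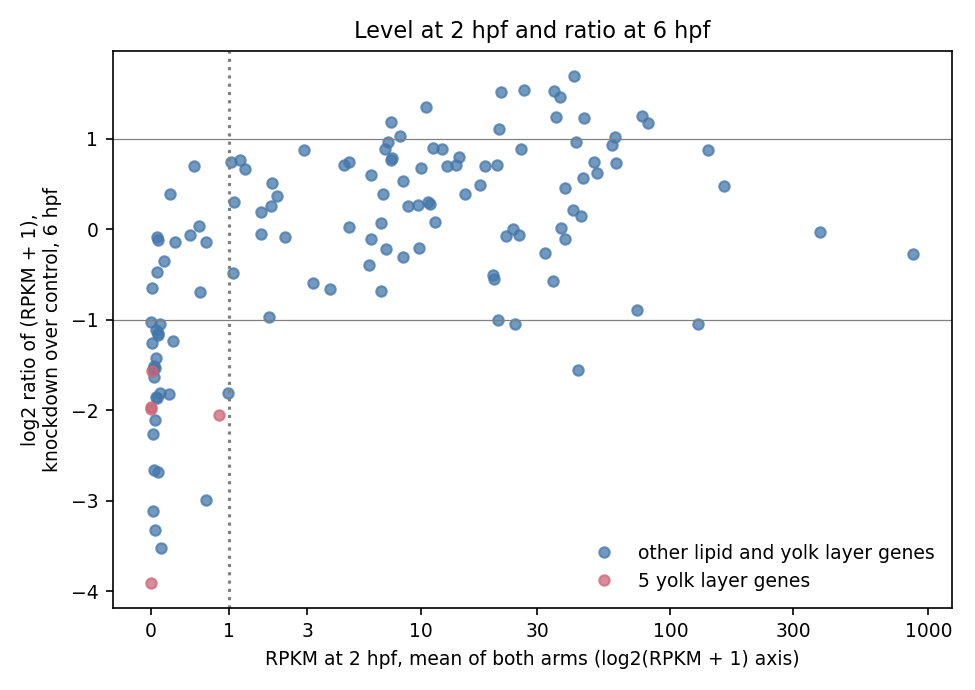
Log2 ratio of (RPKM + 1), knockdown over control at 6 hpf, against the mean RPKM of both arms at 2 hpf on an axis of log2(RPKM + 1), with 1 point per gene for the 5 yolk layer genes and the other 126 lipid and yolk layer genes. The dotted line marks 1 RPKM and the grey lines 2-fold. Most points past the lower line, among them all 5 genes, lie left of the dotted line, and those past the upper line stand right of it.

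The 5 genes can be placed among other late genes, meaning those with little poly(A) RNA at 2 hpf and more at 6 hpf. There were 1134 genes with a mean of both arms under 1 RPKM at 2 hpf and at least 5 RPKM at 6 hpf, and apoa2 was too low to be among them. PLA2G12B reached that mean through its control value (38.5 RPKM, against 1.64 RPKM in the knockdown). Their median log2 ratio at 6 hpf was -0.56 (quartiles -1.51 and 0.18), and 36.9% were lower. Counted from the lowest ratio, PLA2G12B was 5th, apoeb 189th, MTTP 202nd and SLC26A1 276th of the 1134, the last of these near the lower quartile. No test was made of whether lipid transport genes stand apart from other late genes.

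Genes of like course were sought among 8770 genes with a symbol and at least 5 RPKM in some table. Likeness was the Euclidean distance between the 4 centred log2(RPKM + 1) values, over 4 tables and so with few degrees of freedom. Nearest to MTTP were LCP1, an actin-bundling protein gene (71.9 and 15.5 RPKM at 6 hpf, distance 0.13), OTOP1, a proton channel gene (74.3 and 17.1 RPKM, 0.18), and the sulfate cotransporter gene SLC13A4 (0.21). Nearest to SLC26A1 were tp53inp2 (68.1 and 24.4 RPKM, distance 0.09), kazald2 (35.0 and 11.3 RPKM, 0.11) and CBFA2T2 (30.1 and 10.7 RPKM, 0.13). PLA2G12B lay closest to rltgr (33.9 and 1.55 RPKM, distance 0.16), the neural factor SOX2 (44.8 and 2.18 RPKM, 0.17) and the segmentation gene her1 (41.6 and 1.98 RPKM, 0.24).

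Genes near apoeb were farther off, among them the enveloping layer keratin krt4 (1065 and 351.8 RPKM, distance 0.52) and zgc:193505 (516.7 and 174.1 RPKM, 0.77). Those of apoa2 were frzb, a secreted Wnt antagonist gene (6.63 and 0.848 RPKM, distance 0.06), HSPE1, a mitochondrial chaperonin gene (59.3 and 13.6 RPKM, 0.11), and the inhibitory Smad gene SMAD6 (7.20 and 1.05 RPKM, 0.13). HSPE1 was already at 10.6 RPKM in each arm at 2 hpf, where apoa2 was listed at 0. By RPKM it was 4.36-fold lower in the knockdown at 6 hpf, against 18.5-fold for apoa2. Its small distance thus depends on the pseudocount, which damps the change of apoa2. Among the 5 genes MTTP and SLC26A1 were the closest pair, at a distance of 0.89, and apoeb and apoa2 the farthest, at 7.58. Nearest to the mean course of the 4 genes above 5 RPKM were pnhd (100.06 and 19.0 RPKM, distance 0.12), si:ch211-165f21.6 (89.99 and 15.2 RPKM, 0.22), SLC13A4 (0.31), CERS2, a ceramide synthase gene (107.5 and 27.4 RPKM, 0.33), and LCP1 (0.33).

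Between 12104 and 14237 genes reached 1 RPKM in each table. A set of 5 features past 5000 RPKM made up 45.1% of all RPKM in the knockdown at 2 hpf and 0.776% to 2.95% in the other groups, which can touch the scale of the 2 hpf values. Rescaling to equal sums without these features moved the median log2 ratio of all genes at 2 hpf from -0.12 to -0.06. The target ddx3xb stood at 273.9 and 250.8 RPKM at 2 hpf and at 141.0 and 321.8 RPKM at 6 hpf. It was thus higher in the knockdown at 6 hpf (log2 ratio 1.18). These RNA levels alone do not settle whether the morpholino acted, and they leave the labels unchecked.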

How the data were processed

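Poly(A) RNA was selected from TRIzol extracts of embryos and made into stranded libraries, per the labels' protocols. The authors deposited 4 tables of RPKM, with no header and a single value per gene for each pair of libraries. Not given in the sources used here are how the pair was joined, the counter and its strand setting, and the annotation with its gene lengths. The build Zv9 and the tools HISAT2 2.0.5, SAMtools 1.9, Trimmomatic 0.36 and cutadapt 1.13 are named in the submitters' processing notes. Tables were matched to groups by arm and age in their names. The tables hold no coordinates, and overlapping or antisense genes are uncertain.

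Symbols matched 21939 of 33737 identifiers. Some are upper case and 1 symbol can mark 2 genes. Log2 ratios of (RPKM + 1) were computed with pandas 2.3.3 and NumPy 2.4.6 for 16217 genes at 1 RPKM or more in some table and counted at 2-fold. The calling was tested on simulated data with changes larger than 2-fold, placed only in genes of high level. That test does not cover genes with low values such as apoa2. Nothing was tested across replicates, since each group has 1 value. The genes and the lists were chosen with earlier results of these data known. Named were the 5 genes, up to 3 genes per list by absolute ratio at 6 hpf, and the 3 genes of most like course per gene (1 of these is not reported here), and others where the text says so. Gene order came from RefSeq GRCz12tu. Read floors used the steps between low values of the tables and took reads to be counted whole. Alternatives were 2 pseudocounts (0.1 and 5 RPKM), no filter or one of 5 RPKM, and 3 rescalings (by the median ratio over genes that reach 1 RPKM in all 4 tables, by quantiles, and to equal sums without features above 5000 RPKM).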

Additional observations from a re-analysis of the deposited data

How the results depend on the processing

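Each of the 7 alternatives kept the log2 ratio at 6 hpf below 0 for all 5 genes where the gene was compared (apoa2 drops out at a filter of 5 RPKM). MTTP ranged from -2.32 to -1.75, PLA2G12B from -4.47 to -2.71, SLC26A1 from -1.92 to -1.29 and apoeb from -2.41 to -1.93. Only apoa2 lost its 2-fold call, at -0.75 with a pseudocount of 5 RPKM. Median-ratio rescaling moved the median of all genes at 6 hpf from 0.20 to -0.10 and the split of higher and lower genes from 1414 and 1277 to 598 and 2192; quantile normalization gave 1184 and 1535. In the lipid and yolk layer lists the 14 higher genes became 25 with a pseudocount of 0.1 RPKM, 7 with one of 5 RPKM and 6 with median-ratio rescaling, and the 29 lower ones became 17 with a pseudocount of 5 RPKM. The causes were not tested. No paired analysis was possible because the tables hold 1 value per group, and for the same reason no replicate could be left out. The counts over time were 4 or 5 of 5 in control embryos and 3 to 5 of 5 in the knockdown where all 5 were compared. Replicate error stays unknown. The read floors of MTTP, apoa2 and PLA2G12B at 6 hpf are low because these genes had no small value at 2 hpf to set them by. Their true read numbers are not known.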
